A study of Rattus norvegicus with 7 samples.

Results

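Elastic fibres give tissues such as arteries and lung their recoil. Their core is elastin, cross-linked from its soluble precursor tropoelastin by lysyl oxidases, and it is laid down on a scaffold of microfibrils built from fibrillins and microfibril-associated glycoproteins. Fibulins and emilin 1 sit on or between these layers and help to bring tropoelastin, the cross-linking enzymes and the cell surface together. The genes described are Eln (elastin), Fbn1, Mfap2, Mfap4 and Mfap5 (microfibrils), Fbln1, Fbln2, Fbln5 and Efemp2 (fibulins) and Emilin1, 10 genes of the 14217 that the arrays name. They have 14 probe sets among 31042, of which 10, for 8 genes, had enough signal to enter the tests. The family was chosen by function, but selected on measured values in one respect: it was taken up because Eln, Fbln5 and Mfap4 differed between the groups of these same arrays. The differences of those 3 genes are therefore given as a description. Counts over the family include them, and nothing is read from those counts. Of the other 7 genes, 5 had enough signal to be tested.

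The arrays hold RNA of NRK-52E cells, a rat kidney epithelial line, taken 48 h after lipofection with an siRNA at 100 pmol per ml of medium. The labels give 10% serum and seeding at 20% confluence for all cultures. Groups were siRNA 3488 (2 cultures) and siRNA 2600 (2 cultures), both directed at the secreted metalloprotease gene Adamts16, and a scrambled siRNA (3 cultures), each culture being independent and on its own array. All groups carry a transfected duplex, and no untransfected culture was analysed here. The strand of each duplex that can guide silencing is shown because it is what separates the groups. Capitals mark bases 2 to 8, the seed, which differs among all 3 duplexes.
siRNA 3488 antisense: tTTCCGGAgacgtacttct
siRNA 2600 antisense: tTGCGCACagaaatatagg
scrambled antisense: aTTACCGAgcacattggagg

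The labels' target could not be followed on these arrays. Adamts16 read 12.1 and 40.4 under siRNA 3488, 21.4 and 2.42 under siRNA 2600 and 8.68, 7.18 and 18.9 in the controls, below the mean log2 signal of 6.09 (a signal of 68.2) needed for testing. The groups overlapped, and the log2 difference of both siRNAs from the control was 0.25 (95% interval -1.78 to 2.29; exact two-sided permutation test of 4 against 3 arrays, p = 0.829; smallest possible p 0.0571). Median signals of the arrays lay between 126 and 139. Of 9 kidney epithelial markers only Krt8 and Krt19 passed the signal filter, and Cdh1, Epcam and Cdh16 read at most 32.4 on any array. Of 9 fibroblast markers 5 passed, among them Col1a1 and Col3a1, while Pdgfra, Thy1, Lum and Dcn did not. Of 4 endothelial markers Tek passed (182 to 271), while Pecam1, Kdr and Vwf did not. Of 5 leukocyte markers Cd14 (5688 to 6258), Cd68 and Aif1 passed, while Ptprc and Cd3e did not. Cd68 read 365 and 363 under siRNA 3488, 192 and 225 under siRNA 2600 and 208, 236 and 246 in the controls. It rose under siRNA 3488 by 0.67 ± 0.14 (limma adjusted p = 0.0141), where 6.89% of all probe sets tested rose. The other leukocyte markers tested did not pass there, with Cd14 at 0.02 (adjusted p = 0.843) and Aif1 at -0.22 (adjusted p = 0.761). The summed signal of the fibroblast markers was 34867 to 40115 on the siRNA 3488 arrays, 28954 to 30903 under siRNA 2600 and 27544 to 29321 in the controls. That of the kidney epithelial markers was 6722 to 7441, 6071 to 6245 and 5930 to 6507. That of the smooth muscle markers, of which 5 of 6 passed the filter, was 3730 to 4075, 3325 to 4109 and 3126 to 3476. The endothelial sum was 318 to 323, 273 to 361 and 297 to 353, and the leukocyte sum 6328 to 6603, 6455 to 6549 and 6031 to 6530. Krt8 (5698 to 7147) makes up most of the kidney epithelial sum and Cd14 most of the leukocyte sum. In RNA of whole cultures, a change in the number of cells of a type and a change in RNA per cell cannot be told apart.

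The brighter Eln probe set separated all 3 groups. There (1388111_at) Eln read 10164 and 9762 under siRNA 3488, 8342 and 8120 under siRNA 2600 and 6537, 6227 and 6584 in the controls. No groups overlapped, and the order was siRNA 3488, siRNA 2600, control. Group means were 9963 ± 284 (SD, n = 2), 8231 ± 157 (SD, n = 2) and 6449 ± 194 (SD, n = 3). On the log2 scale Eln was 0.63 ± 0.06 (SE) above the control under siRNA 3488, 1.54-fold, and 0.35 ± 0.06 above it under siRNA 2600, 1.28-fold. The 2 siRNAs differed by 0.28 ± 0.06, and by 0.04 to 0.30 over 17 alternative settings. This difference passed as deposited but under none of the 3 other scalings between arrays, where it was 0.04 to 0.28. Eln helped to set the choice, so the difference is a description and nothing is read from the call.

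The second Eln probe set did not share this pattern. At 1395753_at the signals were 593 and 634 under siRNA 3488, 671 and 590 under siRNA 2600 and 687, 615 and 994 in the controls. One control array stood above the rest and the groups overlapped. The log2 difference from the control was -0.29 ± 0.17 under siRNA 3488 and -0.25 ± 0.17 under siRNA 2600. When the mean of both probe sets stood for the gene, Eln lay only 0.17 above the control under siRNA 3488 and 0.05 under siRNA 2600. Which transcripts each probe set reads was not analysed here.

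**Figure D1:**
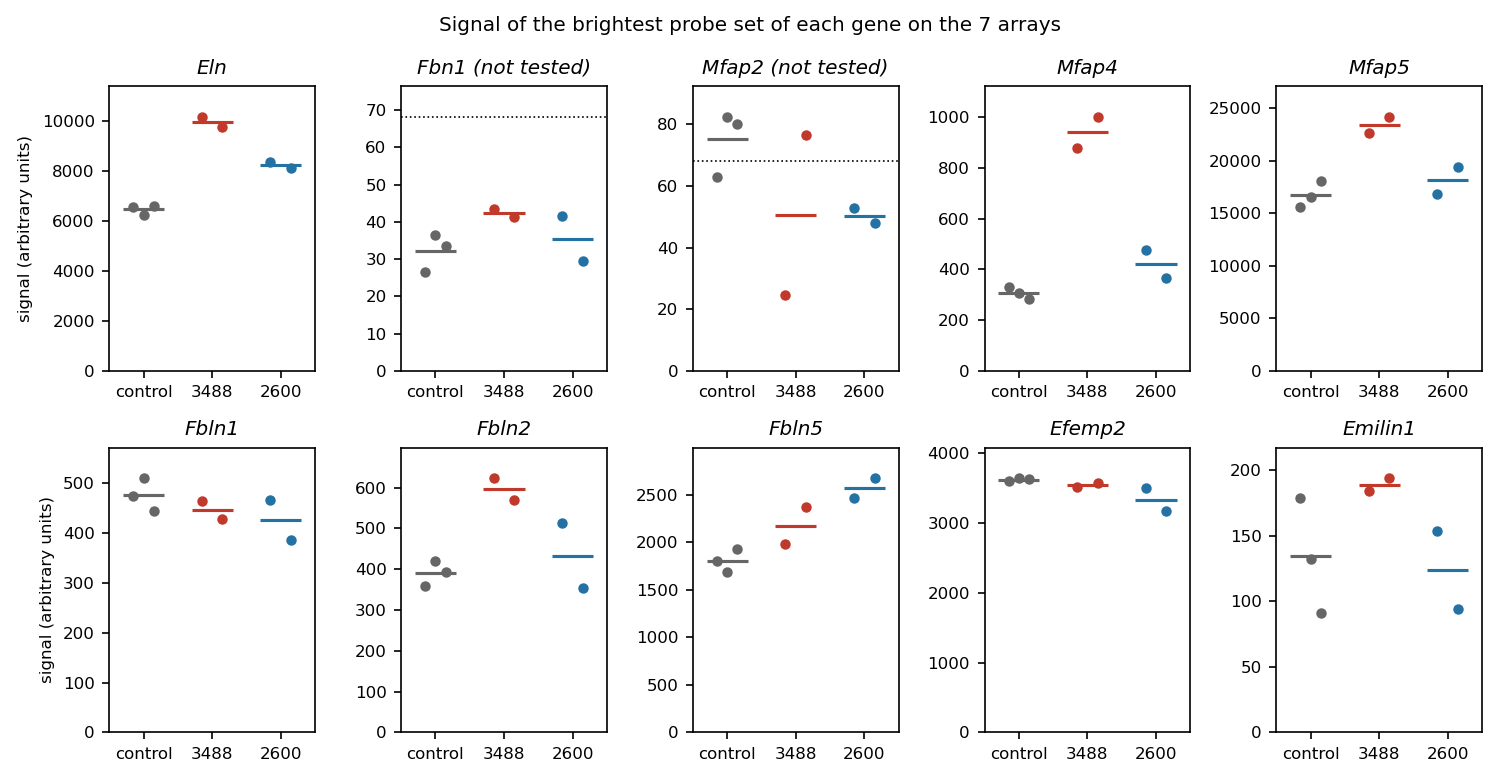
Signal in arbitrary units (linear axis from 0) on each of the 7 arrays, as points, with the group mean as a line, for the brightest probe set of each of the 10 genes; the dotted line marks the signal of 68.2 needed for testing. Eln and Mfap4 are highest under siRNA 3488, Fbln5 is highest under siRNA 2600, and Fbn1 and Mfap2 stay at low signals.

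**Figure D2:**
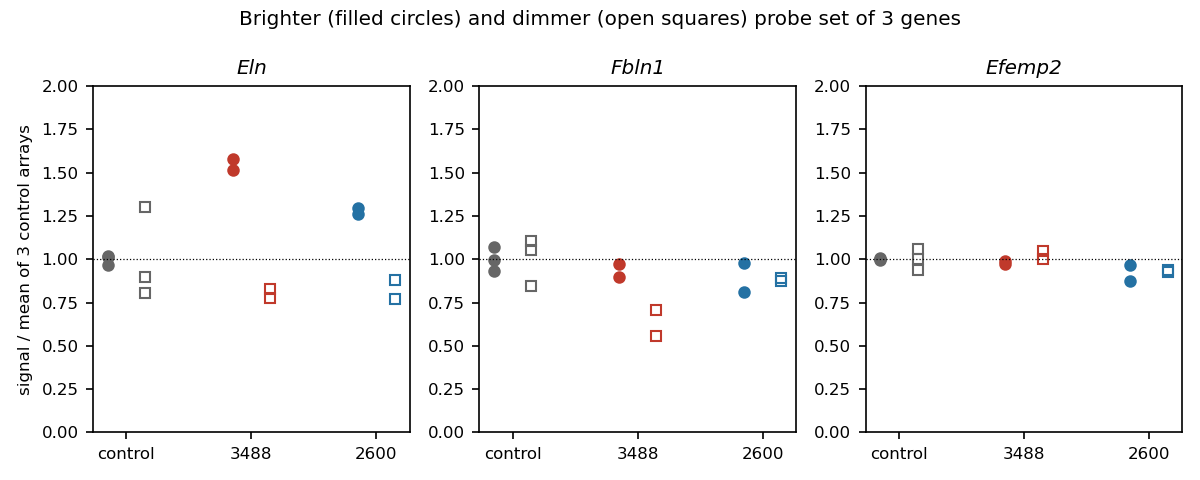
Signal of each array divided by the mean of the 3 control arrays, for both probe sets of Eln, Fbln1 and Efemp2 (circles: brighter; squares: dimmer). The brighter Eln probe set is above 1 on all 4 siRNA arrays and the dimmer one is below 1 on all 4. The dimmer one is also below 1 on control replicates 1 and 2, because control replicate 3 raises the control mean.

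Mfap4 was the microfibril gene among the 3 that set the choice. It encodes a glycoprotein with a fibrinogen-like domain that binds elastic fibres. It read 876 and 1002 under siRNA 3488, 476 and 366 under siRNA 2600 and 332, 309 and 284 in the controls. The siRNA 3488 arrays stood well above all others, and the siRNA 2600 arrays lay above the control arrays by a smaller gap. Means were 939 ± 88.6 (n = 2), 421 ± 77.8 (n = 2) and 308 ± 23.6 (n = 3). The log2 difference from the control was 1.61 ± 0.13 under siRNA 3488 (3.05-fold) and 0.44 ± 0.13 under siRNA 2600 (1.36-fold), and between the siRNAs it was 1.17 ± 0.15. Over 17 alternative settings, the difference between siRNA 3488 and the control stayed between 1.51 and 1.72.

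Mfap5 encodes a small microfibril glycoprotein that binds fibrillin. It read 22591 and 24199 under siRNA 3488, 16873 and 19373 under siRNA 2600 and 15631, 16586 and 18079 in the controls. The siRNA 3488 arrays were above all others, while siRNA 2600 and the control overlapped. As deposited, Mfap5 rose under siRNA 3488 by 0.48 ± 0.08 (limma adjusted p = 0.00685) and stood at 0.11 ± 0.08 under siRNA 2600 (adjusted p = 0.577). The rise was absent after quantile normalization (0.01, adjusted p = 0.890) and did not pass after cyclic loess (0.15, adjusted p = 0.103), without an intensity trend (0.48, adjusted p = 0.0564) or without siRNA 3488 replicate 2 (0.43, adjusted p = 0.0573). Mfap5 is among the brightest 10% of probe sets, whose median log2 change under siRNA 3488 was 0.15 against -0.06 for all probe sets tested. The brighter Eln probe set is also among them. For the 18 probe sets of bacterial and phage control transcripts the median was 0.52 for siRNA 3488 but 0.03 for siRNA 2600. The part of these shifts in the Mfap5 and Eln values was not tested beyond the scalings given here and below.

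The other microfibril genes gave signals too low to test. Fbn1, which encodes fibrillin 1, the main building block of microfibrils, read 43.4 and 41.3 under siRNA 3488, 41.5 and 29.4 under siRNA 2600 and 26.6, 36.6 and 33.4 in the controls at its brighter probe set. Its second probe set read 20.6 on one siRNA 2600 array and at most 8.81 on the others. Mfap2, a relative of Mfap5, read 24.5 and 76.5 under siRNA 3488, 52.9 and 48.0 under siRNA 2600 and 62.8, 82.6 and 80.0 in the controls. The 95% interval of its log2 difference from the control ran from -1.91 to 0.34 under siRNA 3488, so its direction was not detectable at this signal.

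The fibulins did not share one order of the groups. Fbln5 encodes fibulin 5, which binds tropoelastin and cell surface integrins and is needed for elastic fibre assembly. It read 1976 and 2366 under siRNA 3488, 2467 and 2673 under siRNA 2600 and 1803, 1686 and 1929 in the controls. Both siRNA groups lay above the control arrays, and here siRNA 2600 was the higher of the pair. Means were 2171 ± 275 (n = 2), 2570 ± 146 (n = 2) and 1806 ± 121 (n = 3). The log2 difference from the control was 0.26 ± 0.09 under siRNA 3488 and 0.51 ± 0.09 under siRNA 2600, 1.20 and 1.42-fold. siRNA 3488 replicate 1 lay close to the highest control array, and without it the siRNA 3488 difference was 0.39; without replicate 2 it was 0.13.

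Fbln2 encodes fibulin 2, found where microfibrils meet elastin and in basement membranes. It read 623 and 569 under siRNA 3488, 513 and 353 under siRNA 2600 and 359, 421 and 394 in the controls. The siRNA 3488 arrays were above all others, and the siRNA 2600 arrays lay on either side of the control. Fbln2 rose under siRNA 3488 by 0.61 ± 0.15 (limma adjusted p = 0.0257) and was at 0.12 ± 0.15 under siRNA 2600 (adjusted p = 0.759). The call held under quantile normalization, median centring and cyclic loess (0.70 to 0.73). It was lost without an intensity trend (adjusted p = 0.0775) and without siRNA 3488 replicate 1 (0.112) or 2 (0.102) or scrambled control replicate 1 (0.0943), 2 (0.0512) or 3 (0.0607), with log2 changes of 0.54 to 0.67 in these 5 fits. The difference between the siRNAs was 0.49 (95% interval 0.11 to 0.86) and did not pass (adjusted p = 0.115).

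Efemp2 and Fbln1 showed no difference that passed. Efemp2 encodes fibulin 4, which recruits lysyl oxidase to tropoelastin. Its brighter probe set read 3510 and 3575 under siRNA 3488, 3491 and 3164 under siRNA 2600 and 3593, 3641 and 3620 in the controls. All 4 siRNA arrays were below the control arrays, by small gaps, and the log2 difference was -0.03 (95% interval -0.17 to 0.11) under siRNA 3488 and -0.12 (-0.26 to 0.02) under siRNA 2600. Its second probe set gave 0.04 and -0.10. Fbln1, whose product lies in elastic fibres and basement membranes, read 463 and 428, 466 and 385, and 473, 510 and 444 in the same order. The groups overlapped, with differences of -0.09 (95% interval -0.36 to 0.17) and -0.16 (-0.43 to 0.10). Its other probe set was far below the signal needed for testing on every array. With siRNA 3488 the sign of both genes turned with the scaling: Fbln1 was at 0.0021, 0.0018 and 0.02 after quantile normalization, median centring and cyclic loess, and Efemp2 at 0.06 after median centring.

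Emilin1, which encodes a glycoprotein at the interface of elastin and microfibrils, was low and scattered. It read 184 and 194 under siRNA 3488, 153 and 94.1 under siRNA 2600 and 179, 132 and 91.1 in the controls. Only the siRNA 3488 arrays lay together, just above the highest control array. The log2 difference from the control was 0.55 ± 0.30 under siRNA 3488 (limma adjusted p = 0.242), with a 95% interval of -0.12 to 1.21. For siRNA 2600 it was -0.11 ± 0.30 (-0.77 to 0.56; adjusted p = 0.907).

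Among the 5 tested genes outside the choice, 2 (Mfap5 and Fbln2) rose under siRNA 3488, where 6.89% of all probe sets did, and none passed under siRNA 2600, where 0.548% rose (limma; none of the 5 had an unadjusted p under 0.05 there). Between the siRNAs Mfap5 was the only one to pass, where 2.84% of all were higher under siRNA 3488. With both siRNAs taken as one group of 4 arrays, which leaves the difference between the siRNAs in the spread, none of the 5 passed (limma; 0.102% of all passed upward). Mfap5 alone had an unadjusted p under 0.05 there, where 17.8% of all probe sets did in either direction and 6.78% upward. The median log2 change of the 5 was 0.48 under siRNA 3488, -0.11 under siRNA 2600 and 0.22 with both, beside -0.06, -0.02 and -0.05 over all probe sets tested. Over all 8 tested genes, the 3 that set the choice included, the fit called 4 under siRNA 3488, 2 under siRNA 2600, 3 between the siRNAs and 0 with both.

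Every siRNA 3488 array lay above every control array for 6 of the 8 genes, where 19.2% of all probe sets did so; of the 5 genes outside the choice these were Mfap5, Fbln2 and Emilin1. With siRNA 2600 this held for 3 (Eln, Mfap4 and Fbln5; 14.4% of all), and for the same 3 with all 4 siRNA arrays (6.66% of all). These are the 3 genes that set the choice, and none of the 5 others did so in either comparison. Leaving out siRNA 3488 replicate 2 lowered the genes of these 8 called under siRNA 3488 from 4 to 2, those between the siRNAs from 3 to 0 and other elastic fibre genes, given by role, from 11 to 6. Leaving out siRNA 2600 replicate 2 or any control array lowered those called under siRNA 2600 from 2 to 0, and leaving out siRNA 2600 replicate 1 raised those with both siRNAs from 0 to 2. The comparisons share the control arrays. The 3′ to 5′ ratio of beta-actin signals, a sign of RNA quality, moved with the groups. It was 1.94 to 1.96 for siRNA 3488, 1.81 to 1.83 for siRNA 2600 and 1.74 to 1.79 for the control. The same ratio of Gapdh signals did not. It was 0.929 to 0.941, 0.929 to 1.04 and 0.908 to 0.948 in that order, so the groups overlapped. At the brightest probe sets, the group means of Eln, Mfap4, Mfap5 and Fbln2 have the order of the beta-actin ratio. Those of Fbln5, Fbln1, Efemp2 and Emilin1 do not. Of the 5 fibroblast markers that passed the filter, Col1a1 (0.44) and Col3a1 (0.44) rose under siRNA 3488. The other three did not pass under either siRNA, with Col1a2 at 0.30 under siRNA 3488 and 0.56 under siRNA 2600, S100a4 at 0.22 and 0.10 and Pdgfrb at 0.08 and 0.05. Col3a1, at 24439 and 28463 under siRNA 3488, makes up most of their summed signal. The part of the ratios, of Cd68 and of the fibroblast markers in these differences was not tested.

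**Figure D3:**
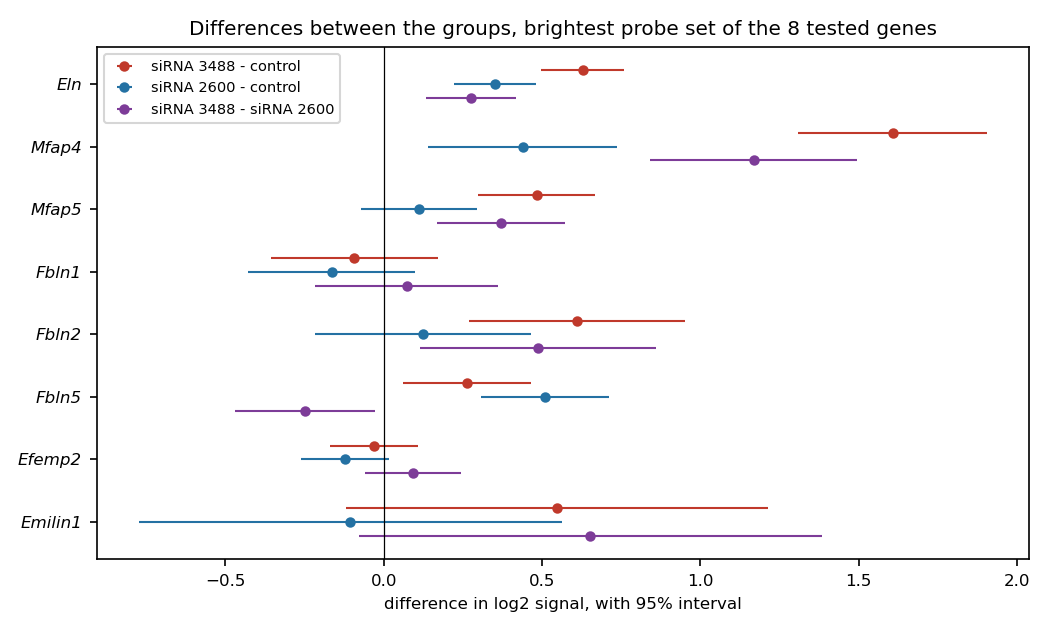
Log2 differences with 95% intervals from the limma fit of 3 groups, for the brightest probe set of the 8 tested genes. Mfap4 stands at 1.61 under siRNA 3488 and 0.44 under siRNA 2600, whereas Fbln5 is at 0.26 and 0.51; the values of Eln, Fbln5 and Mfap4 are a description.

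Of the 8 tested genes, Eln and Mfap5 moved most with the scaling between arrays. With siRNA 3488, Eln went from 0.63 as deposited to 0.34 under the lowest of the other scalings and 0.72 under the highest. Mfap5 went from 0.48 to between 0.01 and 0.58. Mfap4 stayed between 1.61 and 1.72, Fbln2 between 0.61 and 0.73 and Emilin1 between 0.55 and 0.66. The difference in Eln between the siRNAs was 0.28 as deposited and 0.04 after quantile normalization, while that in Mfap4 was 1.17 as deposited and 1.18 to 1.25 under the other scalings.

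**Figure D4:**
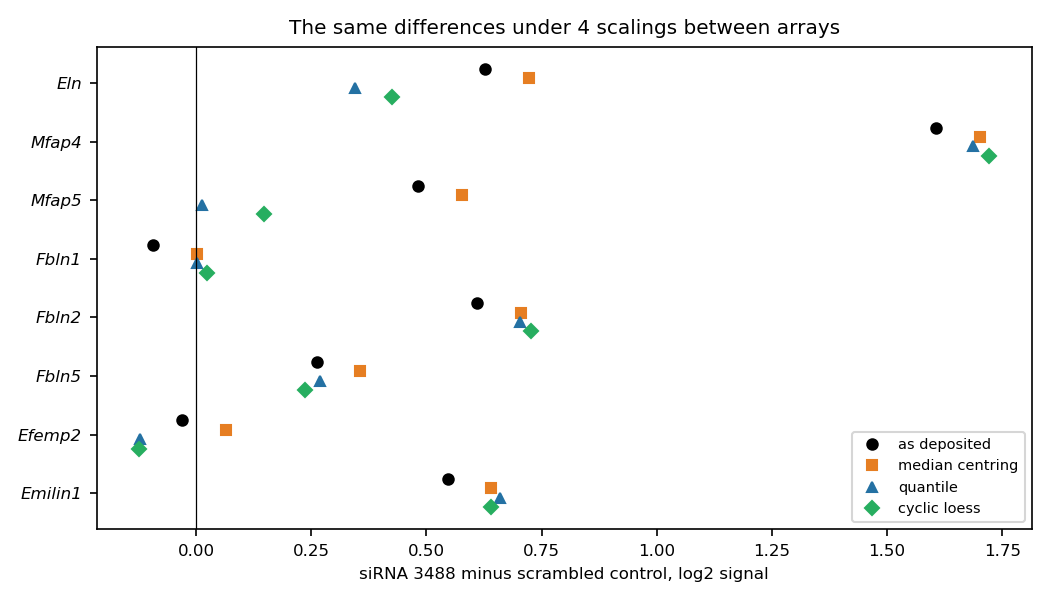
Log2 difference between siRNA 3488 and the control for the 8 tested genes under the deposited scaling, median centring, quantile normalization and cyclic loess. The points of Mfap4 lie between 1.61 and 1.72, while those of Mfap5 spread from 0.01 to 0.58.

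Promoters of 6 of the 10 genes are in the RefSeq table (GRCr8). The 250 bases before the start of Fbln2, Fbln5 and Mfap5 are shown. Of the genes with a promoter there, these 3 were tested and lay above the control with at least 1 siRNA. Fbln2 and Mfap5 were highest under siRNA 3488 and Fbln5 under siRNA 2600. The windows shown were thus picked by signals on these arrays. They are Fbln2 (chr4:125261409-125261658, + strand), Fbln5 (chr6:126742707-126742956, - strand) and Mfap5 (chr4:157399669-157399918, + strand), each written along the gene's own strand. Capitals mark the GC box GGGCGG on either strand.
Fbln2 promoter: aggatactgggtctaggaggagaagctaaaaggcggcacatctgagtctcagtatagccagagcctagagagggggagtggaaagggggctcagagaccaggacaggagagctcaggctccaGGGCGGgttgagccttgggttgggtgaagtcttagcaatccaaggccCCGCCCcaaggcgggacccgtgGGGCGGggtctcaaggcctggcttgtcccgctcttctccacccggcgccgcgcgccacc
Fbln5 promoter: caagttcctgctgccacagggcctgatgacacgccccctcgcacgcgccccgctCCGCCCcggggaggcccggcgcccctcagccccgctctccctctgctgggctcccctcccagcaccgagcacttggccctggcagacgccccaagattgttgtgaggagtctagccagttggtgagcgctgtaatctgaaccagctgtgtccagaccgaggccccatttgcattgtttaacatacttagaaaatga
Mfap5 promoter: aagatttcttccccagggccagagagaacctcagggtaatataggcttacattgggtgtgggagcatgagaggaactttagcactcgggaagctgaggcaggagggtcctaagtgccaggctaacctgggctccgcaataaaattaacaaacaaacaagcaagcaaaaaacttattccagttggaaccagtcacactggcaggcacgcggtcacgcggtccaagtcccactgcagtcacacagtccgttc
The GC box was found 3 times in the Fbln2 window, 1 time in that of Fbln5 and 0 times in that of Mfap5, and 30.5% of 33469 windows of this length hold it. The letters TATAAA (12.9% of windows) and the AP-1 letters TGANTCA (6.34%) were in none of the 3 on either strand. The SMAD letters CAGAC (42.9%) were found 2 times in the Fbln5 window. Base composition differed, with 64.0% G and C for Fbln2, 63.2% for Fbln5 and 51.6% for Mfap5, beside a median of 51.2% over all windows. In the windows not shown, the GC box was found 3 times for Efemp2, 1 time for Mfap2 and 0 times for Fbn1. CAGAC was found 0, 1 and 1 times, and G and C made up 68.0%, 67.6% and 71.2%. Efemp2 showed no difference that passed, and Mfap2 and Fbn1 were not tested. A match of letters is a description of the window, not a binding site.

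Elastic fibres also need enzymes, partners and receptors, taken here from a list of 58 other genes sorted by role, of which 36 were tested. With siRNA 3488, 10 rose and 1 fell (6.89% and 8.74% of all probe sets), 25 did not pass, and the median was 0.15. With siRNA 2600, none rose and 1 fell (0.548% and 0.483% of all), with a median of 0.03. With both siRNAs together none of the 36 passed in limma, and 10 had an unadjusted p under 0.05, where 17.8% of all probe sets did.

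Of the cross-linking enzymes 1 of 4 passed. Lox, lysyl oxidase, read 18377 and 20149 under siRNA 3488, 14196 and 15327 under siRNA 2600 and 14133, 14460 and 14835 in the controls. It rose under siRNA 3488 by 0.41 ± 0.07 (adjusted p = 0.00569) and was at 0.03 under siRNA 2600, but after quantile normalization the siRNA 3488 value was -0.04. Loxl1, the oxidase that fibulin 5 helps to position, was at 0.16 under siRNA 3488 and 0.38 under siRNA 2600, neither passing (adjusted p = 0.466 and 0.233). In Loxl1, as in Fbln5, the mean was higher under siRNA 2600 than under siRNA 3488 (difference -0.22; 95% interval -0.56 to 0.12; adjusted p = 0.413).

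Of 10 tested microfibril partners, Ltbp1 rose under siRNA 3488, and Adamts10 fell under siRNA 2600. Ltbp1, a latent TGF-beta binding protein that associates with fibrillin, rose by 0.26 ± 0.07 (adjusted p = 0.0333; 0.0505 after quantile normalization and 0.0589 after cyclic loess). Adamts10, a relative of Adamts16 that associates with microfibrils, read 1498 and 1676 under siRNA 3488, 1071 and 1116 under siRNA 2600 and 1466, 1473 and 1429 in the controls. It fell by 0.41 ± 0.07 under siRNA 2600 (adjusted p = 0.0319; 0.113 after median centring) and was at 0.12 under siRNA 3488. The difference between the siRNAs was 0.54 ± 0.08 (adjusted p = 0.0106). Mfap1a, a splicing factor despite its name, was at -0.14 and 0.04. Fbn2, the fibrillin of developing tissue, read at most 75.5 and Efemp1, fibulin 3, at most 5.62, and neither was tested.

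Of the proteoglycans, Bgn, biglycan, which binds microfibrils and tropoelastin, rose under siRNA 3488 by 0.46 ± 0.06 (adjusted p = 0.00282) and was at 0.21 under siRNA 2600 (adjusted p = 0.127). Of 8 tested elastases and inhibitors, 5 rose under siRNA 3488 at their brightest probe set. They include the membrane metalloprotease gene Mmp14 (0.47 ± 0.06), the cathepsin gene Ctsl (0.43 ± 0.08), the metalloprotease inhibitor gene Timp1 (0.56 ± 0.09) and the cathepsin inhibitor gene Cst3 (0.41 ± 0.07), with adjusted p between 0.00298 and 0.00833. Both proteases and inhibitors of proteases were thus among the genes that rose. Of 8 tested receptors and chaperones, the sialidase gene Neu1 (0.47 ± 0.10) and the integrin gene Itgb1 (0.36 ± 0.06) rose and Itgav, a subunit of integrins that bind fibulin 5 and fibrillin, fell by 0.33 ± 0.09. None of the 4 tested TGF-beta genes passed with either siRNA. Second probe sets often differed from the brightest one, which is the one counted. For the inhibitor gene Timp2, the fifth that rose, the brightest rose by 0.38 ± 0.08 (adjusted p = 0.0140) and the other fell by 0.36 ± 0.09 (adjusted p = 0.0259), so its direction is not settled. Under siRNA 3488 the second probe sets of Mmp14, Itgb1, Neu1 and Lox were at 0.02, 0.04, -0.03 and 0.23 and the other two of Itgav at 0.13 and -0.20, none passing. That of Ctsl rose as well, by 0.24. That of Adamts10 was at -0.20 under siRNA 2600 without passing (adjusted p = 0.409). After quantile normalization 4 of these 11 genes passed (Bgn, Mmp14, Timp1 and Neu1). After cyclic loess 6 did, the same 4 with Cst3 and Itgav. Of those that rose, Lox, Bgn, Mmp14, Ctsl, Timp1, Timp2, Cst3 and Itgb1 are among the brightest 10% of probe sets tested. The median change of that 10% under siRNA 3488 was 0.15, as given for Mfap5. Ltbp1 and Neu1 are dimmer. The part of this shift in the values of these genes was not tested beyond the scalings given.

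**Figure D5:**
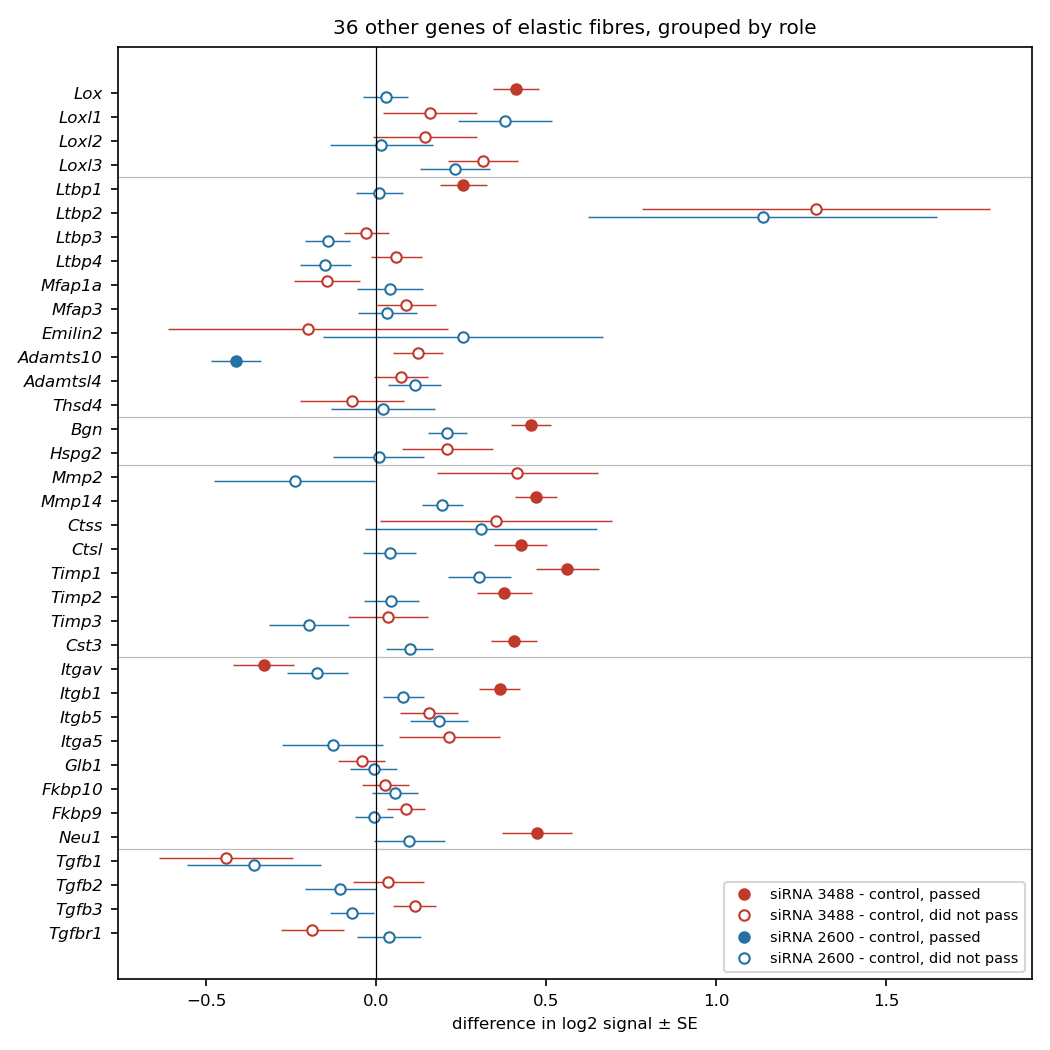
Log2 difference from the control ± SE for 36 other genes of elastic fibres, in blocks by role (from the top: cross-linking, microfibril partners, proteoglycans, elastases and inhibitors, receptors and chaperones, TGF-beta genes). Filled points passed the test; 11 are filled under siRNA 3488 and 1, Adamts10, under siRNA 2600.

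The probe sets whose log2 signals ran most like those of the 3 genes over the 7 arrays were looked up among 13966 named ones. For Eln these were Caprin1 (Pearson r = 0.993), Cyp2c7 (0.991) and Arsa (0.990). For Fbln5 they were Glt8d1 (0.991), Commd4 (0.983) and Snx12 (0.976), and for Mfap4 Strap (0.993), Cog1 (0.989) and Eif3i (0.988). High values were not limited to these: of the 13966 probe sets, 306 exceeded r = 0.9 with Eln, 73 with Fbln5 and 377 with Mfap4. The points share the same 7 arrays and groups, and the values are a description.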

How the data were processed

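Each deposited value is an intensity, the linear signal of 1 probe set on 1 array, computed by the authors; GCOS 1.4 is named in the submitters' processing notes. Its settings and its detection calls were not used here. Values below 1 were raised to 1 before log2, and the deposited scaling was kept. Without the 57 control probe sets, the upper 60% by mean log2 signal (18625) entered lmFit and trended eBayes of limma 3.58.1 (R 4.3.3). Benjamini-Hochberg adjustment ran over all of them, and an adjusted p under 0.05 was called. The pooled comparison of the siRNAs with the control used 2 groups and every other comparison used 3, always on the 7 arrays. Genes were named from the platform's annotation, and the probe set with the highest mean log2 signal stands for a gene. Named are all members, 6 preset partner genes, called partner genes (at most 4 per role, by lowest p) and the 3 nearest patterns. Members and lists were chosen with earlier results of these data known. The fits were tested on simulated data. Alternatives were other scalings, filters, an offset of 32, no trend, a replicate block, other arrays in the fit, the mean over probe sets and leaving out each array. A fit that leaves 1 array in a group assumes that it varies like the other groups.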

Additional observations from a re-analysis of the deposited data

Results flagged for a closer look

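Mfap5 differed between the siRNAs: it was 0.37 (log2) higher with siRNA 3488 than with siRNA 2600 in the test of that difference (limma adjusted p = 0.0429). The call held in 6 of 17 alternatives, whose adjusted p ran from 0.00538 to 0.740.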

How the results depend on the processing

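Family counts here include Eln, Fbln5 and Mfap4. With siRNA 3488, 4 genes of the family and 11 partner genes passed; without an intensity trend these were 2 and 2, and partner genes were 4 after quantile normalization and 6 after cyclic loess. Leaving out 1 array gave 2 to 4 and 6 to 11. With siRNA 2600, 2 and 1 passed. The family count was 0 with no filter or no trend, 1 with the mean over probe sets, and 0 to 2 leaving out 1 array. The partner count was 2 after quantile normalization, 0 after median centring, with no filter, no trend, the mean over probe sets or the replicate block, and 0 to 1 leaving out 1 array. Between the siRNAs 3 passed; 1 did after quantile normalization, cyclic loess, with no filter or with the arrays of the compared groups alone, 0 without a trend, and 0 to 2 leaving out 1 array. With both siRNAs 0 and 0 passed; 1 family gene did after quantile normalization or median centring, 4 family genes and 6 partners did for the mean of the siRNA effects in the fit of 3 groups, and leaving out 1 array gave 0 to 2 and 0 to 5. The Adamts16 log2 difference ran from -0.31 to 1.05 leaving out 1 array.

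Of the 336 alternative values of the 5 tested genes outside the choice, 302 kept direction and call. Those that turned, all small or not called in the alternative, were Fbln1 with siRNA 3488 (0.0021, 0.0018 and 0.024 after quantile normalization, median centring and cyclic loess), Efemp2 after median centring (0.014 with both, 0.064 with siRNA 3488) and with the mean over probe sets (0.0025 with siRNA 3488), Mfap5 between the siRNAs after quantile normalization (-0.034) and Emilin1 with both under the replicate block (-0.032). Leaving out 1 array turned Fbln2 with siRNA 2600 (range -0.15 to 0.39), Fbln1 between the siRNAs (-0.065 to 0.21) and Emilin1 with siRNA 2600 (-0.46 to 0.25) and with both (-0.032 to 0.46). The cause was not tested.

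Whether arrays of the same replicate number belong together could not be told. Deviations of same-numbered arrays correlated at -0.05 to 0.16, and siRNA 2600 replicate 2 correlated best with scrambled control replicate 3 (0.19). With 2 arrays in each siRNA group the deviations of the pair mirror each other, so these correlations are not independent. The replicate block changed no family count. Few arrays per group and low signal limit Fbn1, Mfap2 and Emilin1 most.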
